A study of Mus musculus with 6 samples.

Results

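Matrix metalloproteases (MMPs) and their tissue inhibitors (TIMPs) were followed in granulosa cells of mice labelled Gm12840-/- and of mice labelled wild type, taken during the ovulatory response. The set holds 10 genes, picked by gene name: 7 proteases (Mmp2, Mmp9, Mmp11, Mmp14, Mmp15, Mmp19 and Mmp23) and 3 inhibitors (Timp1, Timp2 and Timp3). They are 10 of 54551 genes in each of 6 RNA sequencing libraries, and 9 of them passed the filter for testing (over 1 FPKM in at least 3 libraries), Mmp9 being the exception. FPKM, the unit of the deposited values, scales the reads of a gene by its exon length and by a total set for each library. Levels can thus be set side by side between genes, within the limit of a length slope that differed between libraries, described below.

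The libraries comprise 3 labelled Gm12840-/- (knockout 1 to 3) and 3 labelled wild type (wild type 1 to 3), all from C57BL/6 mice at postnatal day 21. Every mouse, in both groups, had received 5 IU of PMSG, which makes follicles grow, for 48 h and then 5 IU of hCG, a substitute for the LH surge, for 6 h. The labels do not say how the Gm12840 allele was made, or whether animals were pooled or each library came from its own animal, so p-values below measure only the spread between these samples. Gm12840, a long noncoding RNA, stood at 0.426, 0.611 and 1.45 FPKM in knockout 1 to 3, against 1.83, 0.566 and 0.365 FPKM in wild type 1 to 3. That is 26 reads over the libraries labelled knockout and 28 over those labelled wild type, so the targeted gene was not lower and every direction between the groups rests on the labels alone. Knockout 3 was the highest of its label and wild type 3 the lowest of its own, and whether libraries of the 2 labels were exchanged was not tested. For these reasons the libraries are called by their labels throughout.

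MMPs are zinc-dependent endopeptidases that are made as inactive precursors and cut collagens, laminins and other proteins around the cell. TIMPs bind the active site of a protease and block it. In the ovary this system is known for remodelling the follicle wall and its basement membrane before rupture, and for the tissue changes that turn a ruptured follicle into a corpus luteum.

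The family resemblance of the proteases lies in the catalytic site, where histidine residues hold the zinc ion. Its coding stretch is shown to let the 7 genes be compared base by base. It was found in frame with the letters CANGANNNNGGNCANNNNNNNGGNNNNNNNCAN on the coding strand of GENCODE M21 transcripts (GRCm38, the build also called mm10), once in each of the 7 genes. Capitals mark the histidine codons:
Mmp14: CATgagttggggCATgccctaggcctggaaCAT
Mmp15: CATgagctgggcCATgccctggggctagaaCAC
Mmp2: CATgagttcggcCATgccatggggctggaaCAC
Mmp9: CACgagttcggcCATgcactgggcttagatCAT
Mmp19: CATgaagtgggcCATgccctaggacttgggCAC
Mmp23: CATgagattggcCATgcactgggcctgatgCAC
Mmp11: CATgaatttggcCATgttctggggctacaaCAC
Of these 33 bases, Mmp15 and Mmp2 each shared 27 with Mmp14, Mmp9 and Mmp19 shared 25, Mmp23 shared 24 and Mmp11 shared 23.

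The proteases differ in how the precursor is opened. Mmp11 and the membrane-bound Mmp14, Mmp15 and Mmp23 are known to be cut by furin in the secretory pathway, whereas Mmp2, Mmp9 and Mmp19 are opened outside the cell. A furin site ahead of the zinc site was found in the coding sequence of Mmp11, Mmp14, Mmp15 and Mmp23, and in 0 of the other 3. Its codons are shown with the arginine or lysine codons that were searched for in capitals, the lower-case codon being free to vary, starting at codon 98 in Mmp11, 108 in Mmp14, 124 in Mmp15 and 76 in Mmp23. Mmp15 held 3 matches, and a match with a lysine codon is shown:
Mmp11: CGAcagAAGCGC
Mmp14: CGGaggAAGCGC
Mmp15: CGGcggAAACGT
Mmp23: CGAagaCGCCGC

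The inhibitors share a pair of cysteines at the start of the mature protein, which reach into the protease's active site. The bases coding for that start are shown for the 3 TIMPs, with the cysteine codons in capitals, from codon 25 in Timp1, 27 in Timp2 and 24 in Timp3:
Timp1: TGTagcTGTgcccca
Timp2: TGCagcTGCtccccg
Timp3: TGCacaTGCtctccc

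By level, Timp1 stood far above all other members in the 6 libraries. Timp1 (ENSMUSG00000001131, X:20870166-20874735, plus strand) encodes a secreted inhibitor of most soluble MMPs that acts poorly on membrane-type ones. It stood at 579.6, 299 and 1404 FPKM in knockout 1 to 3, against 1259, 1077 and 397 FPKM in wild type 1 to 3. Its lowest library, knockout 2, was still above the highest value of any other member, and Timp1 ranked between 34th and 98th of 54551 genes in each library.

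Next came Mmp14, Mmp23, Mmp11 and Timp2, whose order changed between libraries. Mmp14 was above Mmp23 in 5 of 6 libraries, Mmp23 above Mmp11 in 3 of 6, and Mmp11 above Timp2 in 6 of 6, although the ranges of Mmp11 and Timp2 over libraries overlapped. Mmp19, Mmp2, Timp3 and Mmp15 formed a lower tier with overlapping ranges, between 0.766 and 11.1 FPKM. Mmp9 was lowest, at 0.0777 to 0.170 FPKM. Together Mmp14, Mmp23 and Mmp11 made up 82.8% to 95.4% of the summed FPKM of the 7 proteases.

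**Figure D1:**
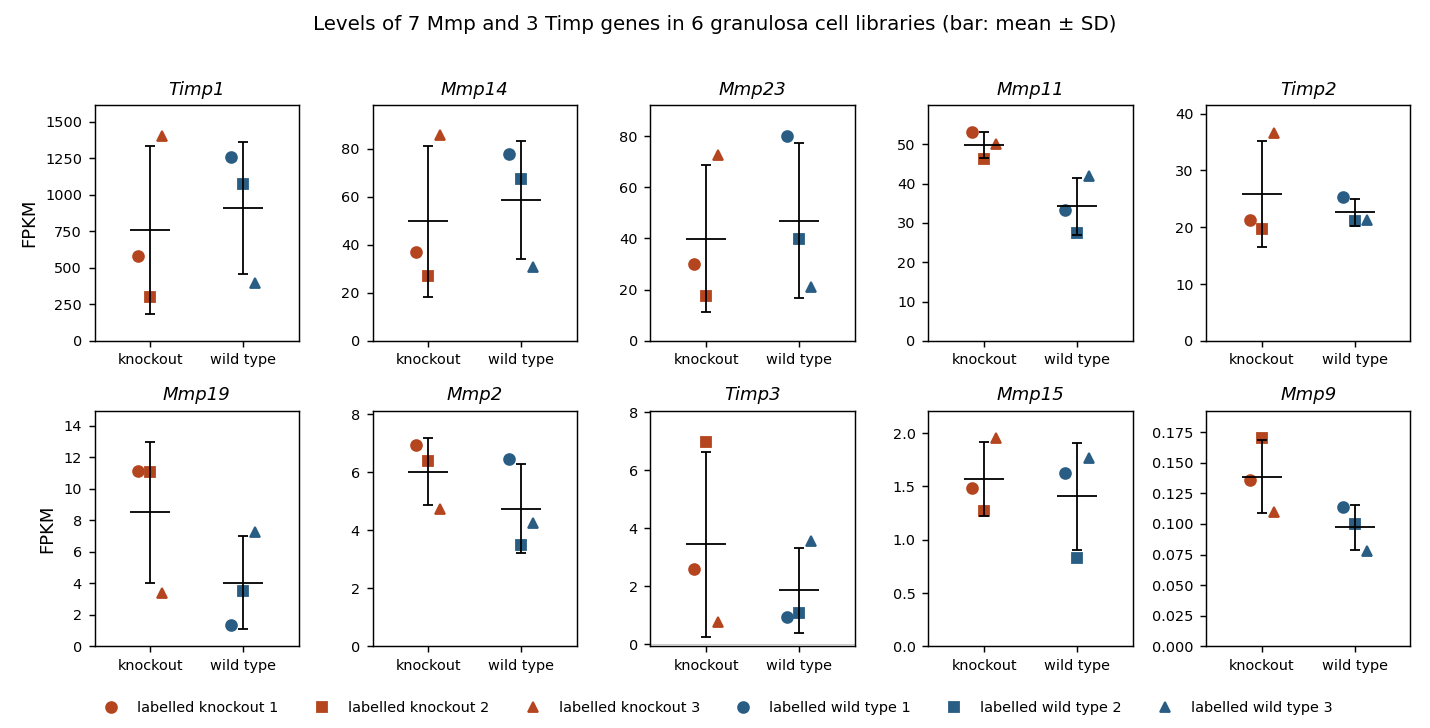
FPKM of each member in the libraries labelled knockout (left in each panel) and wild type (right), ordered by mean level, with a scale of its own in each panel. Symbols are single libraries, and bars give the mean and SD of 3; only for Mmp11 do the 3 values labelled knockout, 46.4 to 53.1, all lie above the 3 labelled wild type, 27.5 to 41.9.

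The first comparison asked whether the proteases differed between the labelled genotypes. Mmp11, stromelysin-3 (ENSMUSG00000000901, 10:75923222-75936496, minus strand), is a secreted MMP, known from stromal fibroblasts, with little action on the classical matrix proteins. It stood at 53.1, 46.4 and 50.0 FPKM in knockout 1 to 3, against 33.3, 27.5 and 41.9 FPKM in wild type 1 to 3. The values labelled knockout were all higher and the groups did not overlap, which held for 1 of the 9 tested members and for 3.53% of all 12495 genes tested (1.45% in this direction). The means were 49.8 ± 3.33 FPKM in the libraries labelled knockout and 34.2 ± 7.26 FPKM in those labelled wild type (SD, n = 3 each), with an exact two-sided permutation p of 0.1, the smallest that 3 against 3 can give.

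In the fit over all genes, Mmp11 had a log2 fold change of 0.55 on the log2(FPKM + 1) scale, with a standard error of 0.25 and a 95% interval of -0.04 to 1.14. It did not pass (unadjusted p = 0.0635, adjusted p = 0.993 by limma). limma called 0 of the 9 members, and 0 of the 9 had an unadjusted p below 0.05. Over all 12495 genes it called 0% after adjustment and 0.728% (91 genes) before it. limma-voom on recovered read numbers also called 0 members and 0 genes, with 0.6% of genes (75) before adjustment. The log2 fold change was above 0 in 6 of the 9 tested members and below 0 in 3, with a median of 0.14, where 5628 of all genes tested were positive and 6867 negative, with a median of -0.04.

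In bulk libraries fewer cells of a type and less RNA per cell cannot be told apart, which holds for all levels given here. The non-overlap of Mmp11 was lost when every library was given the same summed FPKM. In TPM, which are FPKM rescaled to one sum per library, knockout 1 to 3 then stood at 163, 158 and 98.1, and wild type 1 to 3 at 66.8, 59.7 and 137. On that scale knockout 1, knockout 2 and wild type 3 stood above the other libraries. These are the libraries over 1% mitochondrial reads, a split described below. Of the exon bases of Mmp11, 155 (5.58%) are shared with Chchd10 on the other strand, and the library kit does not mark strand. Chchd10 stood at 38.7, 24.5 and 72.9 FPKM in knockout 1 to 3, against 48.8, 50.4 and 28.4 FPKM in wild type 1 to 3, an order unlike that of Mmp11.

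Mmp19, a secreted MMP that cuts basement membrane proteins and is known to be induced by hCG in rodent follicles, had the largest fold change of the tested members in the fit over all genes. Mmp19 (10:128790910-128800824) stood at 11.1, 11.1 and 3.36 FPKM in knockout 1 to 3, against 1.39, 3.53 and 7.24 FPKM in wild type 1 to 3. Knockout 3 fell among the values labelled wild type, so the groups overlapped. Its log2 fold change was 0.95 (standard error 0.58, 95% interval -0.43 to 2.32, adjusted p = 0.993 by limma). Of its exon bases 789 (22.3%) overlap Tmem198b on the other strand, which stood at 6.03, 6.95 and 2.80 FPKM in knockout 1 to 3, against 2.58, 4.42 and 7.19 FPKM in wild type 1 to 3. In both genes knockout 3, wild type 1 and wild type 2 were all below the other libraries, as in 31.4% of all genes tested. How reads over the shared bases were counted is not given in the sources used here.

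Among the membrane-bound proteases, Mmp14, the membrane-type MMP that cuts fibrillar collagen and activates the Mmp2 precursor, showed wide spread within each label. Mmp14 (14:54431612-54445364) stood at 37.0, 26.9 and 85.7 FPKM in knockout 1 to 3, against 77.7, 67.4 and 30.8 FPKM in wild type 1 to 3. Its highest library was knockout 3 and its lowest knockout 2, a 3.18-fold range inside one label, and the log2 fold change was -0.30 with a 95% interval of -1.57 to 0.97.

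Mmp23, an MMP anchored by its N-terminal part that lacks the hemopexin domain and is known mainly from reproductive tissue, followed a similar order. Mmp23 (4:155650655-155653384) stood at 29.8, 17.6 and 72.5 FPKM in knockout 1 to 3, against 80.1, 39.7 and 21.1 FPKM in wild type 1 to 3. Its log2 fold change was -0.26 (95% interval -1.80 to 1.28). Mmp15, a second membrane-type MMP (8:95352268-95375080), stood at 1.49, 1.27 and 1.95 FPKM in knockout 1 to 3, against 1.62, 0.833 and 1.77 FPKM in wild type 1 to 3. Mmp15 rested on 76 to 208 reads a library, and its log2 fold change of 0.11 (95% interval -0.46 to 0.68) was smaller than its spread.

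The gelatinases, which cut type IV collagen of basement membranes, were scarce. Mmp2 (8:92827291-92853420) stood at 6.95, 6.38 and 4.72 FPKM in knockout 1 to 3, against 6.45, 3.51 and 4.27 FPKM in wild type 1 to 3. The groups overlapped, with a log2 fold change of 0.31 (95% interval -0.32 to 0.93). Mmp9 (2:164940780-164955850) had 9, 11 and 6 reads in knockout 1 to 3, against 6, 6 and 6 reads in wild type 1 to 3. In sum this gave 26 reads (exact Poisson 95% interval 17.0 to 38.1) in the libraries labelled knockout and 18 (10.7 to 28.4) in those labelled wild type, intervals that cover counting error only and that overlap. A difference in Mmp9 was therefore not detectable at this depth.

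The inhibitors gave no call either. Timp1 averaged 761 ± 574 FPKM in the libraries labelled knockout and 911 ± 454 FPKM in those labelled wild type (SD, n = 3 each). Its log2 fold change was -0.38 with a standard error of 0.73 and a 95% interval of -2.12 to 1.36, so either a 2-fold rise or a 4-fold fall lay inside the interval. Timp2 (11:118301069-118355740), which inhibits MMPs and also bridges Mmp14 to the Mmp2 precursor, stood at 21.3, 19.7 and 36.7 FPKM in knockout 1 to 3, against 25.4, 21.2 and 21.3 FPKM in wild type 1 to 3. Knockout 3 stood above the other 5 libraries, which lay between 19.7 and 25.4 FPKM, and the log2 fold change was 0.14 (95% interval -0.55 to 0.83).

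Timp3 (10:86300372-86349506), the inhibitor that is held in the matrix and also blocks ADAM and ADAMTS proteases, varied most among the members, 9.10-fold over libraries. Timp3 stood at 2.61, 6.97 and 0.766 FPKM in knockout 1 to 3, against 0.935, 1.09 and 3.56 FPKM in wild type 1 to 3. Its high libraries were those where Timp1 was low, and the log2 fold change was 0.49 (95% interval -0.94 to 1.91). Timp1 and Timp3 each lie inside a synapsin gene on the other strand. Timp1 shares 0 exon bases with Syn1, and Timp3 shares 1733 (21.3% of its own) with Syn3, which stood at 0.0110 to 0.0423 FPKM.

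**Figure D2:**
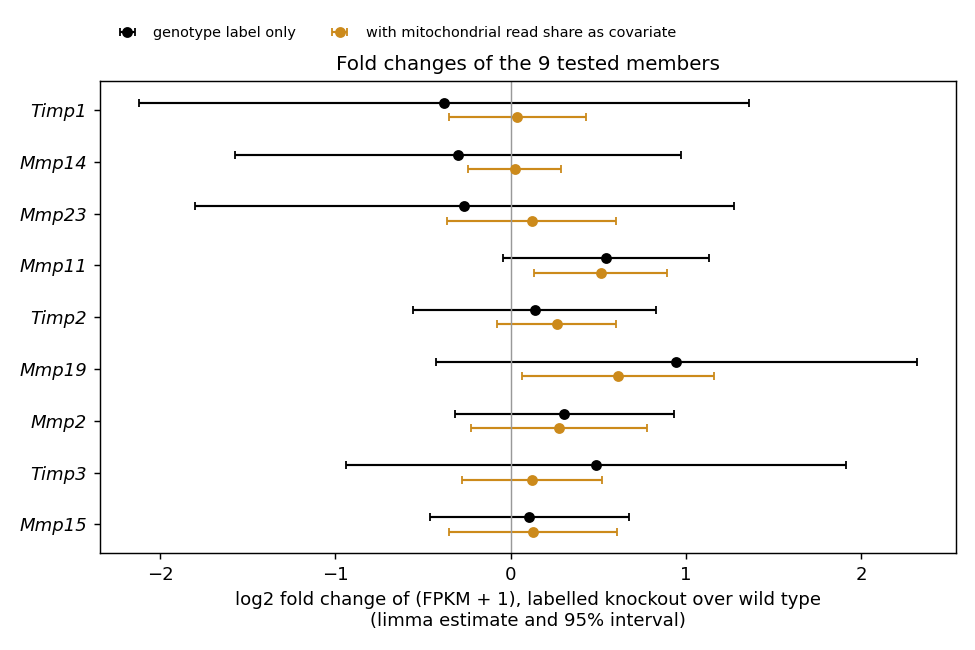
Log2 fold change of (FPKM + 1), libraries labelled knockout over wild type, for the 9 tested members, with 95% intervals from limma. Black points use the genotype label alone, where all 9 intervals include 0; ochre points add the mitochondrial read share of each library as a covariate, where the intervals of Mmp11 (0.14 to 0.89) and Mmp19 (0.07 to 1.16) lie above 0, neither passing after adjustment over all genes.

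The balance of inhibitors to proteases was taken as the FPKM summed over the 3 Timp genes divided by that summed over the 7 Mmp genes. The ratio was 4.32, 2.97 and 6.60 in knockout 1 to 3, against 6.40, 7.71 and 3.94 in wild type 1 to 3. The groups overlapped, at 4.63 ± 1.84 in the libraries labelled knockout and 6.02 ± 1.91 in those labelled wild type (SD, n = 3 each). The ratio was lower in each of knockout 1, knockout 2 and wild type 3 than in each of the other libraries, as Timp1 itself was. Timp1 made up 91.8% to 98.0% of the Timp sum. The Mmp sum itself was 139.6, 109.8 and 218 FPKM in knockout 1 to 3, against 201, 143 and 107 FPKM in wild type 1 to 3. Set against Timp1 alone, Mmp14 stood at 0.0610 to 0.0900 FPKM for each FPKM of Timp1 over the 6 libraries.

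**Figure D3:**
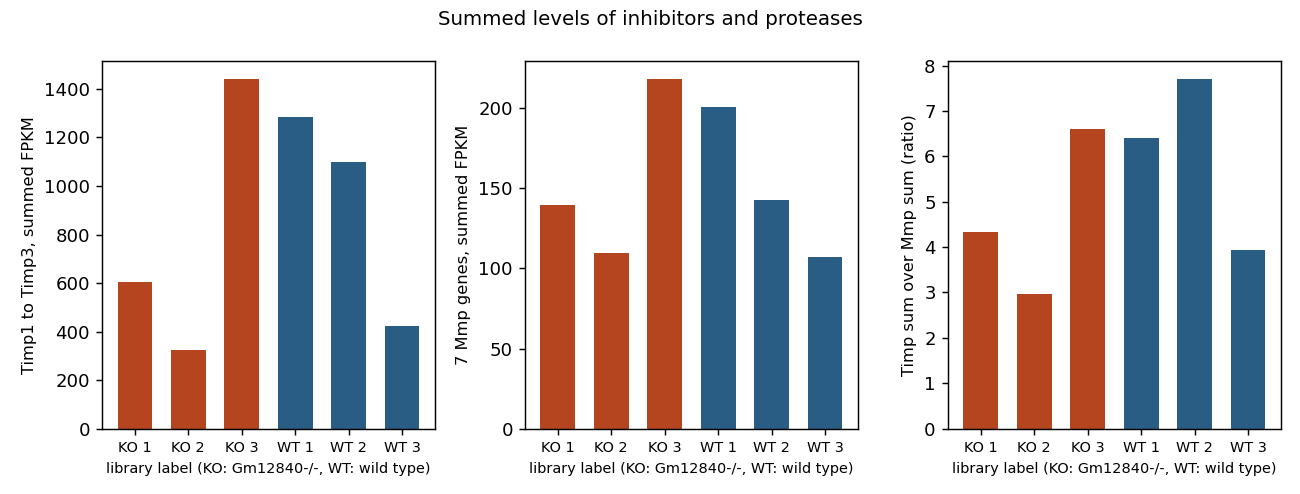
Summed FPKM of Timp1, Timp2 and Timp3 (left), summed FPKM of the 7 Mmp genes (middle) and the ratio of the first sum to the second (right), one bar per library, knockout-labelled in red and wild-type-labelled in blue. The ratio runs from 2.97 in knockout 2 to 7.71 in wild type 2, and both labels hold high and low libraries. It is lower in knockout 1, knockout 2 and wild type 3, the libraries over 1% mitochondrial reads, than in the others.

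The spread within each label moved with the share of mitochondrial reads. Reads of mitochondrially encoded genes took 1.52%, 4.19% and 0.146% of the reads in knockout 1 to 3, against 0.227%, 0.311% and 2.08% in wild type 1 to 3. Timp1, Mmp14 and Mmp23 were higher in each of the 3 libraries under 1% (knockout 3, wild type 1 and wild type 2) than in each of the 3 over 1%, as were 34.9% of all genes tested. Timp3 and Mmp19 were lower in each of them, as were 31.4% of all genes tested. On the deposited scale the 9 tested members therefore divided along these libraries about as all genes did. The summed FPKM of the libraries split in the same way, at 460292 to 509742 under 1% and 292946 to 326343 over 1%. With the same summed FPKM, Timp1 and Mmp14 were higher in each library under 1%, and Mmp2, Mmp11, Mmp15, Mmp19 and Timp3 lower. Mmp23 and Timp2 were mixed. The share of all genes was not counted on that scale, so these orders cannot be read as particular to the members.

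Gene length moved with the same libraries. The slope of log2 level on log2 gene length, taken around each gene's mean, was 0.0387, 0.194 and -0.123 in knockout 1 to 3, against -0.132, -0.0840 and 0.105 in wild type 1 to 3. Timp1 has 888 exon bases in the deposited tables and Timp3 has 8144, the shortest and the longest of the members. The slope was negative in the libraries where Timp1 was high and positive where Timp3 was high. With the slope as a covariate, added after the results were seen, Timp1 had a log2 fold change of 0.14 (95% interval -0.16 to 0.44), Timp3 0.02 (-0.31 to 0.35) and Mmp11 0.51 (0.11 to 0.90). That fit called 0 members and 0.008% of all genes by limma, and 1 member, Mmp11, and 5.02% of all genes before adjustment.

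Within the libraries over 1% mitochondrial reads, 2 labelled knockout and 1 labelled wild type, the mean log2 level of Mmp11 was 0.24 higher in those labelled knockout. Within the libraries under 1%, 1 labelled knockout and 2 labelled wild type, it was 0.71 higher. The same differences were 0.55 and 0.41 for Mmp19, 0.07 and 0.27 for Timp1, 0.03 and 0.24 for Mmp14, and 0.12 and 0.35 for Mmp23. These values have no test, since each set holds 3 libraries. Timp1, Mmp14 and Mmp23, negative in the fit over all libraries, had positive differences within both sets. Timp3 (0.23 and -0.19), Timp2 (-0.06 and 0.64), Mmp15 (-0.22 and 0.43) and Mmp2 (0.54 and -0.02) changed sign between the sets.

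**Figure D4:**
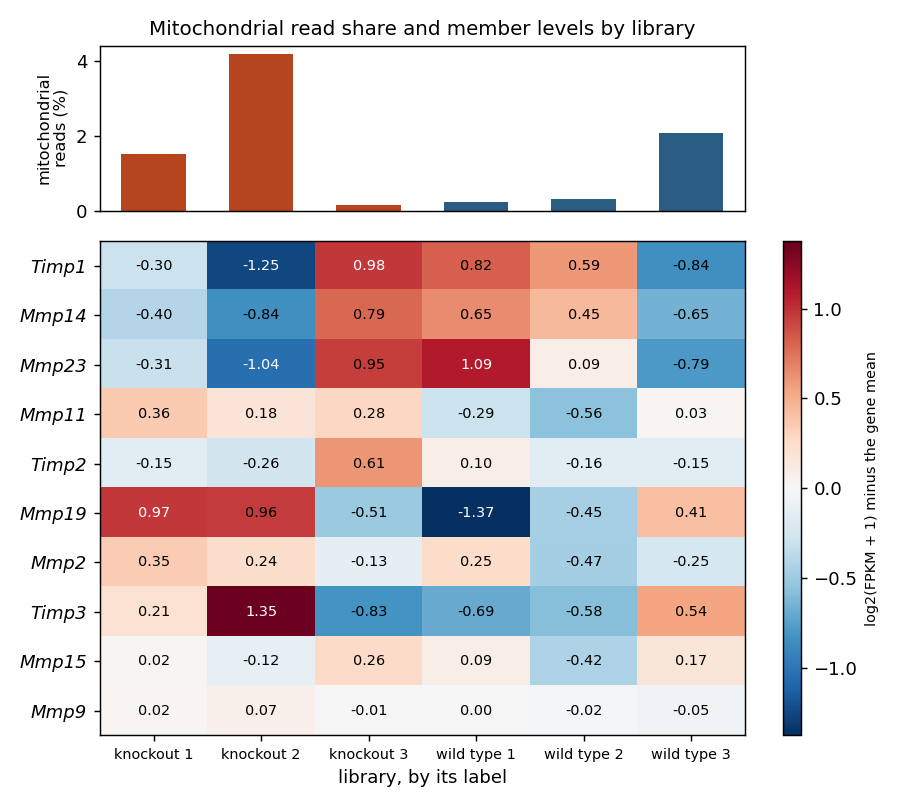
Share of reads from mitochondrially encoded genes (top, percent) and log2(FPKM + 1) of each member minus its mean over the 6 libraries (bottom), with libraries in columns by label. Timp1, Mmp14 and Mmp23 are high (red) where the share is under 1%, Mmp19 and Timp3 are low (blue) there, and Mmp11 is high in all 3 libraries labelled knockout.

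With the log2 mitochondrial read share as a covariate, a fit added after the results were seen, Mmp11 had a log2 fold change of 0.51 (standard error 0.16, 95% interval 0.14 to 0.89). Its unadjusted p was 0.0142 and its adjusted p was 0.79 by limma, so it was not called. Mmp19 had 0.61 (95% interval 0.07 to 1.16, unadjusted p = 0.0328, adjusted p = 0.886 by limma). Before adjustment 2 of 9 members and 5.37% of all genes had a p below 0.05 in this fit, and 0 members were called after adjustment, beside 0.008% of all genes. The covariate leaves 3 residual degrees of freedom. Timp1 moved to 0.04 (95% interval -0.35 to 0.43) and Mmp14 to 0.02 (-0.24 to 0.29). All 9 members had a positive estimate here, compared with 46.2% of all genes tested. The intervals of all but Mmp11 and Mmp19 included 0. Members are not replicates of each other, so this tally has no test.

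When knockout 3 and wild type 3 were both left out, also an alternative added after the results were seen, limma called 4 of the 9 members. Mmp19 (log2 fold change 1.88, adjusted p = 0.022) and Timp3 (1.42, adjusted p = 0.0289) were higher by this test, and Mmp14 (-1.17, adjusted p = 0.0268) and Mmp23 (-1.26, adjusted p = 0.0443) lower. The fit called 26.9% of all genes tested, 11% higher and 15.9% lower. Before adjustment 6 of 9 members and 44.6% of all genes had a p below 0.05. It compares libraries of 1.52% and 4.19% mitochondrial reads, labelled knockout, with libraries of 0.227% and 0.311%, labelled wild type, so label and mitochondrial share cannot be told apart in it.

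The other members of the family were nearly silent. The tables hold 23 Mmp and 4 Timp genes, and the 17 outside the set never reached 1 FPKM, so 0 of the 17 could be tested. Mmp16, a membrane-type MMP, had the highest mean among them, at 0.296, 0.776 and 0.270 FPKM in knockout 1 to 3, against 0.101, 0.246 and 0.534 FPKM in wild type 1 to 3. Timp4, the remaining inhibitor, stood at 0.0464 to 0.389 FPKM. The collagenases Mmp8 and Mmp13 had 1 and 0 reads summed over the libraries labelled knockout, against 5 and 3 over those labelled wild type. Mmp1a and Mmp20 had 0 reads in every library.

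**Figure D5:**
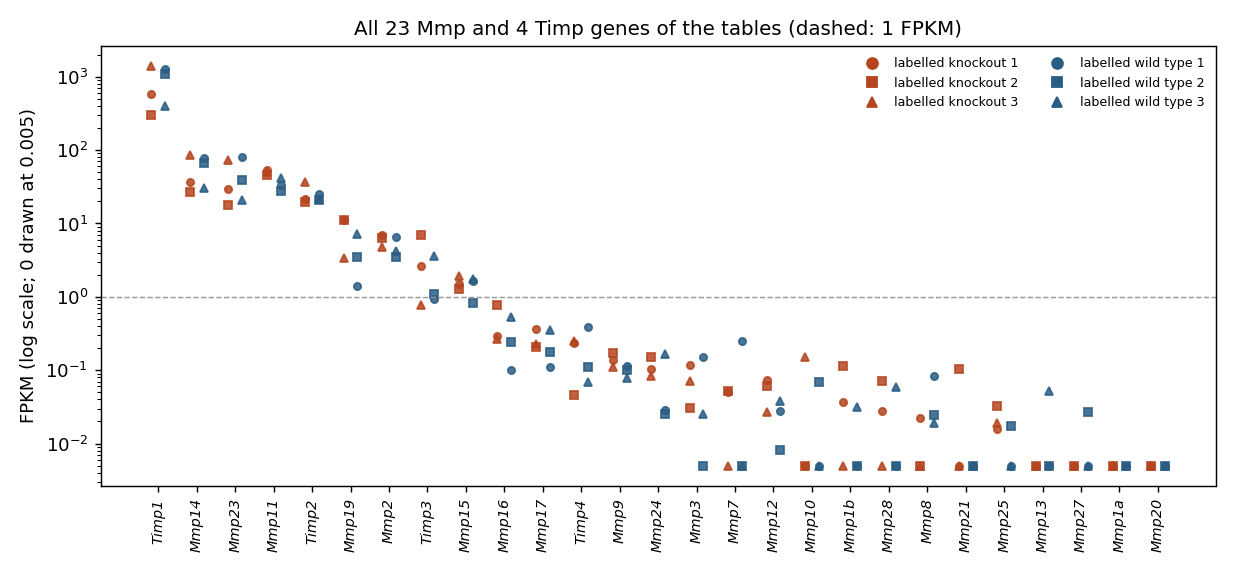
FPKM (log scale) of the 23 Mmp and 4 Timp genes in the 6 libraries, ordered by mean; symbols and colours mark library and label, values of 0 are drawn at 0.005, and the dashed line is 1 FPKM. Timp1 stands alone above 200 FPKM, 8 further members exceed 1 FPKM in some library, and 18 genes stay under the line.

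Genes that activate, bind or are cut by these proteases were described by lists, none with a called gene. Of 22 genes for activation and control of MMPs, 19 were tested, with 12 positive and 7 negative and a median log2 fold change of 0.11. Plau, urokinase, which makes the plasmin that opens secreted MMP precursors, stood at 202, 190.3 and 209 FPKM in knockout 1 to 3, against 384, 229.6 and 263 FPKM in wild type 1 to 3. Plau was lower in all 3 libraries labelled knockout without overlap, as were 2.08% of all genes tested, and did not pass (log2 fold change -0.51, adjusted p = 0.993 by limma). Tfpi2, a protease inhibitor of the matrix, stood at 1.97 ± 0.768 FPKM in the libraries labelled knockout and 1.05 ± 0.149 FPKM in those labelled wild type (SD, n = 3 each).

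Of 20 matrix proteins that MMPs cut, 17 were tested and 16 were positive, with a median log2 fold change of 0.34, beside 45.0% positive among all genes. All those tested except Col1a2, Col18a1, Eln and Sparc were higher in each of knockout 1, knockout 2 and wild type 3 than in each other library. These are the libraries over 1% mitochondrial reads, and 31.4% of all genes tested had this order. Col1a2, a fibrillar collagen chain, stood at 7.92 ± 1.21 FPKM in the libraries labelled knockout and 5.31 ± 0.829 FPKM in those labelled wild type, without overlap (SD, n = 3 each), as were 1.45% of all genes tested in this direction. Col18a1, a basement membrane collagen named for its non-overlap after its values were seen, was lower without overlap, at 21.1, 16.6 and 18.2 FPKM in knockout 1 to 3, against 22.2, 22.5 and 22.4 FPKM in wild type 1 to 3. Col3a1, another fibrillar collagen chain, stood at 19.5 ± 5.82 FPKM in the libraries labelled knockout and 11.7 ± 2.78 FPKM in those labelled wild type. None of the 3 was called (adjusted p = 0.993 by limma), and Col1a2 and Col3a1 are also in the stromal marker list. Of 9 partners of TIMPs and proteases that Timp3 blocks, 8 were tested, 5 positive and 3 negative, with a median of 0.0045. Adam10, a sheddase, stood at 25.7 ± 7.74 FPKM in the libraries labelled knockout and 17.7 ± 4.02 FPKM in those labelled wild type. Adamts1, a versican-cutting protease known from ovulation in mice, stood at 132 ± 81.2 FPKM in the libraries labelled knockout and 80.6 ± 59.1 FPKM in those labelled wild type. Of 19 AP-1, ETS and other ovulatory regulators, 18 were tested, 9 positive and 9 negative, with a median of -0.0023. Pgr, the progesterone receptor, stood at 3.20 ± 2.53 FPKM in the libraries labelled knockout and 5.85 ± 1.88 FPKM in those labelled wild type. Etv4, an ETS factor, stood at 1.40 ± 0.649 FPKM in the libraries labelled knockout and 2.07 ± 0.499 FPKM in those labelled wild type.

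Markers of granulosa and other cells were set beside these values. All 8 granulosa markers were tested, summing to 4366 to 8643 FPKM in the libraries labelled knockout and 6086 to 11468 FPKM in those labelled wild type. Most of each sum was Inha, at 3973 to 10808 FPKM. Foxl2, Fshr, Amhr2, Nr5a2 and Hsd17b1 were above 20 FPKM in every library, whereas Inhba stood at 19.0 to 77.0 and Cyp19a1 at 2.96 to 14.4 FPKM. The 13 markers of stroma, pericytes and smooth muscle summed to 90.4 to 115 FPKM in the libraries labelled knockout and 62.7 to 119.9 FPKM in those labelled wild type. Of the 9 tested, 9 were positive, with a median log2 fold change of 0.49, beside 45.0% positive among all genes tested. Theca markers were positive in 5 of 5 tested, endothelial in 6 of 7 and leukocyte in 3 of 6. Granulosa markers were positive in 2 of 8, oocyte in 1 of 8 and surface epithelium in 0 of 4. Among the stromal markers Acta2 stood at 27.2 to 83.2 FPKM and Col3a1 at 8.52 to 24.4 FPKM. The fibroblast markers Dcn and Lum stood at 0.628 to 3.14 FPKM. The other smooth muscle and pericyte markers, Tagln, Myh11, Des, Rgs5, Cspg4 and Pdgfrb, stood at 0.193 to 3.31 FPKM. None of the 13 was at 0 in all libraries, and the part of stromal cells in the Mmp11 values was not tested. Leukocyte markers summed to 35.6 to 57.8 FPKM in the libraries labelled knockout and 36.1 to 61.4 FPKM in those labelled wild type. Within that list Ptprc, found on all leukocytes, was at 0.0110 to 0.0747 FPKM, whereas the myeloid markers Lyz2 and Cd68 stood at 22.3 to 39.8 and 4.42 to 7.27 FPKM. The part of leukocytes in the Mmp9 values was not tested. Theca markers summed to 37.3 to 42.7 FPKM in the libraries labelled knockout and 24.8 to 59.5 FPKM in those labelled wild type. Endothelial markers summed to 21.3 to 25.9 FPKM in the libraries labelled knockout and 12.1 to 22.1 FPKM in those labelled wild type. Oocyte markers summed to 231 to 400.0 FPKM in the libraries labelled knockout and 255 to 461 FPKM in those labelled wild type, and surface epithelium markers to 22.3 to 86.9 FPKM in the libraries labelled knockout and 34.1 to 96.6 FPKM in those labelled wild type. The sums of all 7 marker lists overlapped between the groups.

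The genes closest in pattern were found as those with the smallest root mean square distance of centred log2(FPKM + 1) over the 6 libraries, among 12486 other tested genes. For Timp1, the most abundant member, they were Fbl, the nucleolar methyltransferase fibrillarin (distance 0.0279), Nudc, a dynein-associated chaperone (0.0567), and its pseudogene Nudc-ps1 (0.0573), whose reads may be shared with Nudc. Fbl stood at 47.6, 24.8 and 113 FPKM in knockout 1 to 3, against 106, 87.3 and 32.5 FPKM in wild type 1 to 3. For Mmp11, the member with the smallest unadjusted p, they were Gm22270, annotated as a small nucleolar RNA (0.0683), an unnamed feature (0.0713) and Serpina3n, a serine protease inhibitor (0.0832). Serpina3n stood at 2.25, 1.93 and 2.05 FPKM in knockout 1 to 3, against 1.01, 0.545 and 1.27 FPKM in wild type 1 to 3. Being chosen for likeness to Mmp11, their differences between the labels are no separate evidence.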

How the data were processed

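RNA of 3 samples labelled Gm12840-/- and 3 labelled wild type was made into libraries with a TruSeq RNA kit, per the labels' protocols, a kit that does not mark strand. Values were deposited as FPKM, with each gene's exon length and position, per the file headers. The submitters' processing notes list HISAT2 2.0.5 and mm10, whereas the read counter, annotation release and scaling were not given in the sources used here. Multiplied by gene length, 100% of the deposited FPKM were whole multiples of the value of 1 read in their library, to within 0.01 reads. The recovered total was 16392098 to 19465847 reads per library, and intervals on reads cover counting error only. The total behind the FPKM of each library was 1.12, 1.12 and 0.904 times its recovered reads in knockout 1 to 3. It was 0.894, 0.939 and 1.12 times in wild type 1 to 3, thus higher in the libraries over 1% mitochondrial reads. The coordinates and exon lengths of the 10 members were the same in GENCODE M21.

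Groups came from the sample titles. limma 3.58.1 in R 4.3.3, with a prior variance that follows the mean level, was fitted to log2(FPKM + 1) of the genes over 1 FPKM in at least 3 libraries, genotype being the only term. Tests were two-sided, with Benjamini-Hochberg adjustment over all 12495 genes tested and a threshold of 0.05. For low genes the pseudocount makes a fold change smaller than the change in level. Single genes were also compared by an exact permutation test (scipy 1.17.1). The fit was also run on simulated reads with planted changes. Those reads held no split between libraries like the one described here, so the run does not show how the fit behaves on these data. Chi-square tests between libraries of one label gave 36.7 to 392 per degree of freedom over genes with at least 20 reads, above sampling noise, so all 6 were kept as separate samples.

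The members and lists were chosen with earlier results of these data known. Named were all members, the 2 genes of each list with the smallest p where none was called, and the 3 genes closest in pattern to the most abundant member and to the member with the smallest p. Markers, overlapping genes and untested family members named beside them were chosen after their values were seen. Alternatives were pseudocounts of 0.1 and 10, filters, scalings, limma-voom on recovered reads, a replicate block and leaving out each library, and, added after results were seen, fits with a covariate or without both replicates 3. Coding stretches came from GENCODE M21 transcripts. Figures were drawn with matplotlib 3.10.9.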

Additional observations from a re-analysis of the deposited data

How the results depend on the processing

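limma called 0 members and 0 of all genes with other pseudocounts, filters and scalings, with limma-voom, with the replicate block and without each library in turn (range 0 to 0). The alternatives chosen after the results were seen differed. Without both replicates 3 it called 3404 genes, 4 members among them, and with the mitochondrial read share or the length slope it called 1 gene and 0 members. The number of members whose groups did not overlap, 1, became 0 with the same summed FPKM, 6 without both replicates 3, and 1 to 2 when 1 library was left out (2 without knockout 3 or without wild type 1). Over all genes tested, groups did not overlap for 3.53% as deposited, 2.3% with the same summed FPKM, 76.2% without both replicates 3, 21.7% without knockout 3 and 8.05% without wild type 1, so the 6 of 9 members stand beside a like share of all genes. The same summed FPKM also raised the median over all genes to a log2 value of 0.11, compared with -0.04 as deposited, and Mmp11 then had 0.72.

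Mmp11, Mmp19 and Mmp2 kept a positive log2 fold change in 17 of 17 alternatives. For Mmp11 it ran from 0.40 to 0.70 without 1 library, for Mmp19 from 0.49 to 1.44 and for Mmp2 from 0.15 to 0.51. Filters and the replicate block cannot change these estimates. All alternatives draw on the same 6 libraries, so their number is no separate evidence. Signs turned among members that had no call in the fit by label over all libraries. Of these, Mmp14, Mmp23 and Timp3 were called without both replicates 3. The cause of the turns was not tested. Without knockout 2, Mmp14 turned to 0.048, Mmp23 to 0.19, Timp1 to 0.15 and Timp3 to -0.065. Timp2 turned to -0.13 without knockout 3 and to -0.17 without both replicates 3, Mmp23 to 0.22 without wild type 1, and Mmp15 to -0.078 without wild type 2. With the mitochondrial read share, Mmp14 turned to 0.023, Mmp23 to 0.12 and Timp1 to 0.038. With the length slope, Mmp14 turned to 0.094, Mmp23 to 0.22 and Timp1 to 0.14. Without 1 library these members ran from -0.77 to 0.048 (Mmp14), -0.80 to 0.22 (Mmp23), -0.96 to 0.15 (Timp1), -0.13 to 0.30 (Timp2), -0.065 to 1.02 (Timp3) and -0.078 to 0.22 (Mmp15). The log2 difference in the Timp to Mmp ratio, -0.40, ran from -0.69 to -0.12 without 1 library, and was -0.97 without both replicates 3 and -0.12 as a difference of mean log2 levels.

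The replicate block, which cannot change the estimate in this balanced design, left Mmp11 at 0.55 with an adjusted p of 0.9999 by limma. Over all genes, the deviations from the group means correlated at -0.422, -0.672 and -0.894 between libraries sharing a number. No library (0 of 6) was closest to its namesake. Knockout 3 was the only library of its label under 1% mitochondrial reads, and wild type 3 the only one of its own over 1%. Libraries sharing a number thus deviated in opposite directions along that split, so this check could not decide whether the numbers mark pairs. Depth limits Mmp9, at 6 to 11 reads a library.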
